A study of Mus musculus with 9 samples.

Results

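Antibody in saliva is made by plasma cells that sit between the acini and ducts of the gland. These cells secrete mostly IgA, a heavy chain paired with a kappa or lambda light chain, and join IgA monomers into dimers through the J chain. The epithelium takes up the dimer with the polymeric immunoglobulin receptor and releases it into saliva with part of the receptor still attached. The RNA of 10 genes on this route was examined in whole adult submandibular glands (SMGs). They were chosen by gene symbol, out of the 17562 rows that the authors kept in their normalized table. *Igha*, *Ighm*, *Ighg1*, *Ighg2b* and *Ighg2c* encode the constant regions of the IgA, IgM and IgG heavy chains. *Igkc* and *Iglc1* encode those of the kappa light chain and of a lambda light chain. *Jchain* encodes the J chain, *Mzb1* an endoplasmic reticulum protein of antibody-secreting cells, and *Pigr* the receptor.

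The glands came from male mice, 4 wildtype (WT) and 5 double knockouts (DKO) that lack *Hs3st3a1* and *Hs3st3b1*, which encode enzymes that add 3-O-sulfate groups to heparan sulfate. The mice are on a C57BL/6 background, and the DKO, which lack both genes in all cells, descend from embryos heterozygous for the *Hs3st3b1* knockout in which *Hs3st3a1* was cut with a zinc finger nuclease. The ages of the mice within adulthood were not given in the sources used here. Each sample is 1 unstranded RNAseq library, and nothing beyond the labels says how the glands were dissected or batched, so that p-values measure the spread between these samples. The paper calls the WT mice littermates of the DKO. The labels do not say which mice shared a litter, so the main comparison was unpaired.

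Libraries held 20653500 to 37870500 counts in WT and 17053700 to 34683700 in DKO, and pairwise correlations of log2 CPM lay between 0.936 and 0.980. CPM values are counts divided by the size of the library in units of 1e6 counts, after scaling by edgeR's TMM factors. *Hs3st3a1* had 3 to 14 counts in the WT libraries and 0 in all 5 DKO libraries, where 3 counts is the limit that a count of 0 allows. *Hs3st3b1* had 67 to 216 counts in WT and 7 to 45 in DKO. Genes of the neighbouring sublingual and parotid glands were uneven among libraries. Their summed level was 8213 CPM in DKO 1, 233 in DKO 4, 170.4 in DKO 2 and 119 in WT 3, against 34.8 to 88.7 in the other 5. Some results below are therefore also given without these libraries, in 3 versions that were chosen after seeing the data. They are differences between genotypes in gene levels, in some shares and ratios, and in the number of genes called. The correlations with *Igha* were not run in these 3 versions.

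The feature that lets IgA and IgM bind the J chain lies at the end of their secreted heavy chains. The last 57 coding bases of 3 secreted transcripts are shown for this reason, 5′ to 3′ on the coding strand from GENCODE M21 (GRCm38), with the codon for the cysteine next to the last residue in capitals. *Igha* ends at chr12:113258768-113258824, *Ighm* at chr12:113420867-113420923 and *Ighg2b* at chr12:113306389-113306445, all on the minus strand.
Igha: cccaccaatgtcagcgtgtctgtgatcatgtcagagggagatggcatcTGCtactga
Ighm: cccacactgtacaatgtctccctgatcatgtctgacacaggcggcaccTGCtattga
Ighg2b: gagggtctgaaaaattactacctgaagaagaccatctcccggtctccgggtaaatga
The IgA and IgM ends differed at 19 of 57 bases and both carry the cysteine codon. The IgG2b end differed from the IgA end at 44 of 57 bases and has no cysteine codon at that place.

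*Igha* was the most abundant heavy chain gene in every library, and its level spread widely between mice of the same genotype. It spans chr12:113254830-113260236 on the minus strand. *Igha* measured 60.1, 137, 298 and 218 CPM in WT 1 to WT 4. In DKO 1 to DKO 5 it measured 308, 18.6, 111, 336 and 103 CPM. The lowest and the highest library were both DKO, the highest 18.03 times the lowest, and the groups overlapped. The mean was 178 CPM ± 102 (SD, n = 4) in WT and 175 ± 139 (SD, n = 5) in DKO. The log2 fold change (DKO over WT) was -0.02 (SE 0.65, 95% interval -1.45 to 1.41, adjusted p = 0.993, edgeR's quasi-likelihood fit). In whole glands, fewer plasma cells and less RNA per plasma cell cannot be told apart.

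**Figure D1:**
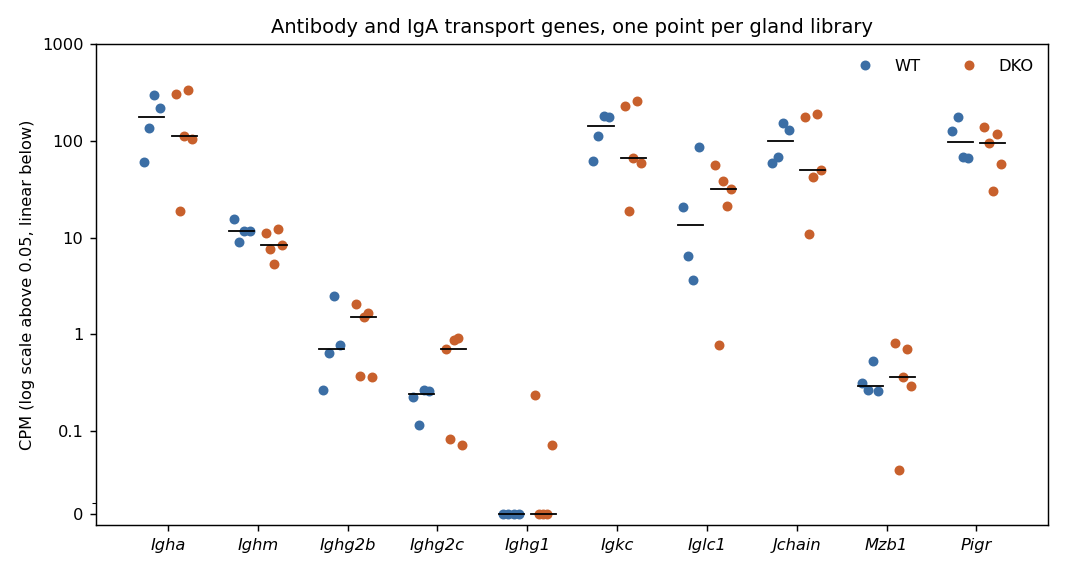
CPM of the 10 genes (log axis above 0.05) in 4 WT and 5 DKO libraries, with 1 point per library and a black line at each group's median. The WT and DKO points overlap for all 10 genes, and *Igha*, *Igkc* and *Jchain* each spread over more than 1 decade within the DKO group.

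*Jchain* and *Igkc* had a similar spread. *Jchain*, at chr5:88519809-88527891, measured 59.5, 67.6, 152 and 130.3 CPM in WT and 175, 10.8, 42.3, 189 and 50.1 CPM in DKO. Its log2 fold change was -0.13 (SE 0.64, 95% interval -1.53 to 1.27, adjusted p = 0.956, edgeR). *Igkc*, at chr6:70726435-70726966, measured 62.3, 111, 179 and 175 CPM in WT and 230.4, 18.6, 65.8, 255 and 58.3 CPM in DKO. Its log2 fold change was -0.07 (SE 0.61, 95% interval -1.41 to 1.27, adjusted p = 0.978, edgeR). For both genes DKO 2 was the lowest library, DKO 1 and DKO 4 were the highest, and the groups overlapped.

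*Ighm* was far steadier. It lies at chr12:113418558-113422730 and measured 15.6, 9.02, 11.7 and 11.8 CPM in WT and 11.2, 7.61, 5.32, 12.3 and 8.41 CPM in DKO. The highest library was 2.94 times the lowest. DKO 2, DKO 3 and DKO 5 lay below the lowest WT value, and DKO 1 and DKO 4 fell among the WT values. The log2 fold change was -0.42 (SE 0.23, 95% interval -0.92 to 0.08, unadjusted p = 0.0947, adjusted p = 0.451, edgeR). The exact permutation test of its CPM, two-sided, gave p = 0.135 (n = 4 and 5).

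The IgG genes were low, and *Ighg1* and *Ighg2c* were near the limit of detection. *Ighg2b*, at chr12:113302965-113307933, measured 0.268, 0.650, 2.52 and 0.773 CPM in WT and 2.08, 0.370, 1.51, 1.66 and 0.363 CPM in DKO (log2 fold change 0.16, SE 0.63, adjusted p = 0.941, edgeR). *Ighg2c*, at chr12:113285325-113288932, was counted 5, 3, 12 and 6 times in the WT libraries and 24, 2, 19, 23 and 1 times in the DKO libraries. *Ighg1*, at chr12:113325240-113330523, had 0 counts in all 4 WT libraries and in DKO 2, DKO 3 and DKO 4, with 8 counts in DKO 1 and 1 in DKO 5. *Mzb1* was counted 7, 7, 24 and 6 times in the WT libraries and 28, 1, 8, 18 and 4 times in the DKO libraries. *Ighg1*, *Ighg2c* and *Mzb1* did not pass the filter on low counts and were not tested, which left 7 of the 10 genes.

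*Iglc1* varied most of all. It lies at chr16:19061618-19062071 and measured 20.5, 6.39, 3.67 and 85.9 CPM in WT and 56.3, 0.781, 38.7, 21.4 and 32.1 CPM in DKO. The highest library was 110.0 times the lowest, and WT 4 and DKO 2 were the extremes. The log2 fold change was 0.05 (SE 0.94, 95% interval -1.998 to 2.09, adjusted p = 0.991, edgeR). The ends of the lambda genes are shown because nearly identical copies could share reads. They come from the minus strand, at chr16:19061752-19061808, chr16:19198536-19198592 and chr16:19065365-19065421, and capitals mark the cysteine codon that precedes the last residue.
Iglc1: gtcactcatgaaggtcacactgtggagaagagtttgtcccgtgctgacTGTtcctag
Iglc2: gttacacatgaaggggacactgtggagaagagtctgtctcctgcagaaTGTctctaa
Iglc3: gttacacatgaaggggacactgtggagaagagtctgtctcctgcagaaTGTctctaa
*Iglc1* differed from *Iglc2* at 12 of these 57 bases and shared 0 runs of 31 bases with it over the whole transcript. *Iglc2* and *Iglc3* were identical here and shared 106 of 428 such runs, so the division of reads between these 2 genes is uncertain.

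*Pigr*, the receptor made by the epithelium, followed another order of libraries. It lies at chr1:130826684-130852249 on the plus strand and measured 125.9, 175, 67.5 and 66.8 CPM in WT. In DKO it measured 140.2, 94.5, 30.1, 117 and 57.0 CPM. DKO 2, the library with the least *Igha*, had an intermediate *Pigr* level, and the groups overlapped. The means were 109 CPM ± 52.3 (SD, n = 4) and 87.8 ± 44.5 (SD, n = 5). The log2 fold change was -0.31 (SE 0.41, 95% interval -1.20 to 0.58, adjusted p = 0.801, edgeR).

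None of the 7 tested genes passed an adjusted p of 0.05 by edgeR or DESeq2, and none had an unadjusted p under 0.05 by edgeR. Among all 13842 tested genes edgeR called 0.629% and DESeq2 4.46%, and 14.5% had an unadjusted edgeR p under 0.05. The values of WT and DKO did not overlap for 6.0% of tested genes and for 0 of the 7. The median log2 fold change was -0.07 over the 7 genes and 0.01 over all tested genes. The intervals are wide: that of *Igha* allows a difference of over 1 log2 unit in either direction. The within-group SD of log2 CPM was 1.43 for *Igha*, 1.36 for *Jchain*, 1.27 for *Igkc*, 2.27 for *Iglc1* and 0.81 for *Pigr*, against a median of 0.27 over tested genes. *Igha* exceeded 99.2% of tested genes in this spread, *Pigr* 95.6% and *Ighm* 74.0%.

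Leaving out the libraries highest in sublingual and parotid genes moved the estimates of 5 genes downwards. Only DKO 1, at 8213 CPM, stood far from the rest, and WT 3, at 119 CPM, was also the largest library (37870500 counts). Without DKO 1 alone, edgeR gave -0.48 for *Jchain* (adjusted p = 0.804), -0.40 for *Igkc* (0.829) and -0.54 for *Pigr* (0.625). It gave -0.51 for *Ighm* (0.378) and -0.32 for *Igha* (0.882). Without WT 3, DKO 1 and DKO 4, the highest by counts of those genes, log2 fold changes were -1.33 for *Jchain* (adjusted p = 0.260), -1.29 for *Igkc* (0.243), -1.02 for *Pigr* (0.308), -0.78 for *Ighm* (0.178) and -0.83 for *Igha* (0.588), by edgeR. These 3 libraries were also the 3 highest in *Igha*, and both levels were known when they were chosen. Without DKO 1, DKO 2 and DKO 4, the highest by CPM, the values were -1.15 for *Jchain* (adjusted p = 0.116), -1.09 for *Igkc* (0.138), -1.33 for *Pigr* (0.119), -0.83 for *Ighm* (0.109) and -0.73 for *Igha* (0.433), by edgeR. Without all 4 libraries they were -0.90 for *Jchain* (adjusted p = 0.185), -0.91 for *Igkc* (0.231), -1.51 for *Pigr* (0.107), -0.84 for *Ighm* (0.169) and -0.37 for *Igha* (0.690), by edgeR. *Jchain*, *Igkc*, *Pigr* and *Ighm* had an unadjusted p under 0.05 in all 3 versions, from 0.00608 for *Pigr* without the 4 libraries to 0.0385 for *Pigr* without the first 3. Over all tested genes the share with an unadjusted p under 0.05 was 14.6% without WT 3, DKO 1 and DKO 4, 21.2% without DKO 1, DKO 2 and DKO 4, and 19.1% without all 4. None of the genes passed after adjustment, each version leaves 5 or 6 libraries, and DKO 1 and DKO 4 are left out of all 3. In *Jchain* (175 and 189 CPM) and *Igkc* (230.4 and 255 CPM) they were the highest DKO libraries. The same held for *Pigr* (140.2 and 117 CPM) and *Ighm* (11.2 and 12.3 CPM). Leaving them out thus lowers the DKO values of these genes by choice, so these p-values are not evidence of a decrease. Without DKO 2 as well, DKO 3 and DKO 5 remain, the lowest of all libraries in *Pigr* (30.1 and 57.0 CPM).

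**Figure D2:**
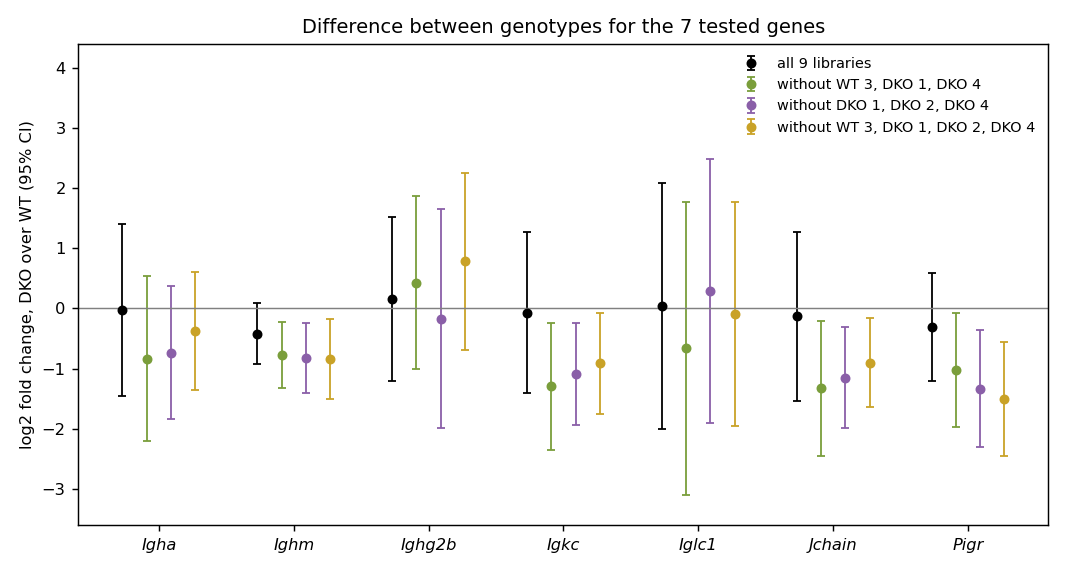
Log2 fold change (DKO over WT, y axis) with 95% interval for the 7 tested genes, from all 9 libraries (black) and from the 3 versions without the libraries highest in sublingual and parotid genes. With all 9 libraries each interval includes 0, and in the 3 versions the intervals of *Ighm*, *Igkc*, *Jchain* and *Pigr* lie below 0 before adjustment over all genes. All 3 versions leave out DKO 1 and DKO 4, the highest DKO libraries in these genes.

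The balance of isotypes was next compared as a share of heavy chain counts, which sets each isotype against the total heavy chain RNA of the same gland. *Igha* made up 78.7%, 93.0%, 95.3% and 94.3% of heavy chain counts in WT 1 to WT 4. In DKO 1 to DKO 5 it made up 95.4%, 69.5%, 93.5%, 95.7% and 91.9%. IgA was thus the main isotype in all 9 glands, and 1 library of each genotype had a lower share. In WT 1 the share rested on 1347 of 1712 counts (Wilson 95% interval 76.7% to 80.6%), and in DKO 2 on 453 of 652 (65.8% to 72.9%). Such intervals cover counting error only. The mean was 90.3% ± 7.81 (SD, n = 4) in WT and 89.2% ± 11.1 (SD, n = 5) in DKO (exact permutation p = 0.873, adjusted over 6 measures 0.913).

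*Ighm* made up most of the rest. Its share was 20.4%, 6.13%, 3.76% and 5.09% in WT and 3.47%, 28.4%, 4.46%, 3.49% and 7.48% in DKO. The 2 high shares, in WT 1 and DKO 2, were in the 2 libraries with the least *Igha*, while their *Ighm* levels of 15.6 and 7.61 CPM were the highest of WT and the second lowest of DKO. The difference between genotypes was 0.600 percentage points (exact permutation p = 0.913, n = 4 and 5). All IgG genes together took 0.483% to 0.891% in WT and 0.451% to 1.999% in DKO, a difference of 0.529 percentage points (exact permutation p = 0.198, adjusted 0.595, n = 4 and 5). Per length of the secreted transcript the order held: the median share over the 9 libraries was 94.6% for *Igha*, 3.80% for *Ighm*, 0.472% for *Ighg2b* and 0.218% for *Ighg2c*.

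Light chain use differed between mice more than between genotypes. *Igkc* made up 74.6%, 93.8%, 96.9% and 66.2% of light chain counts in WT and 78.7%, 94.6%, 62.6%, 90.5% and 63.1% in DKO. In every library kappa was the larger part, and both genotypes held libraries near the top and the bottom of this range. The mean was 82.9% ± 14.9 (SD, n = 4) in WT and 77.9% ± 14.9 (SD, n = 5) in DKO (exact permutation p = 0.571, adjusted 0.913). The remainder was mainly *Iglc1*: its median share per length was 21.7%, against 1.11% for *Iglc2* and 0.375% for *Iglc3*.

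The J chain kept a narrower ratio to the heavy chains it joins. There were 78.6, 46.3, 49.3 and 56.8 *Jchain* counts per 100 *Igha* and *Ighm* counts in WT and 54.9, 41.1, 36.3, 54.3 and 44.7 in DKO. WT 1 was the highest, and the other 3 WT libraries lay within or just above the DKO range. The mean was 57.7 ± 14.6 (SD, n = 4) in WT and 46.3 ± 8.21 (SD, n = 5) in DKO (exact permutation p = 0.167, adjusted 0.595).

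The receptor did not keep such a ratio. There were 209, 128, 22.7 and 30.7 *Pigr* counts per 100 *Igha* counts in WT and 45.6, 507, 27.0, 34.9 and 55.1 in DKO. DKO 2 stood apart, with its low *Igha*, and set the direction of the difference. The mean difference was 36.2 counts higher in DKO with all libraries (exact permutation p = 0.897, n = 4 and 5) and -57.1 without DKO 2 (exact permutation p = 0.400, n = 4 and 4).

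**Figure D3:**
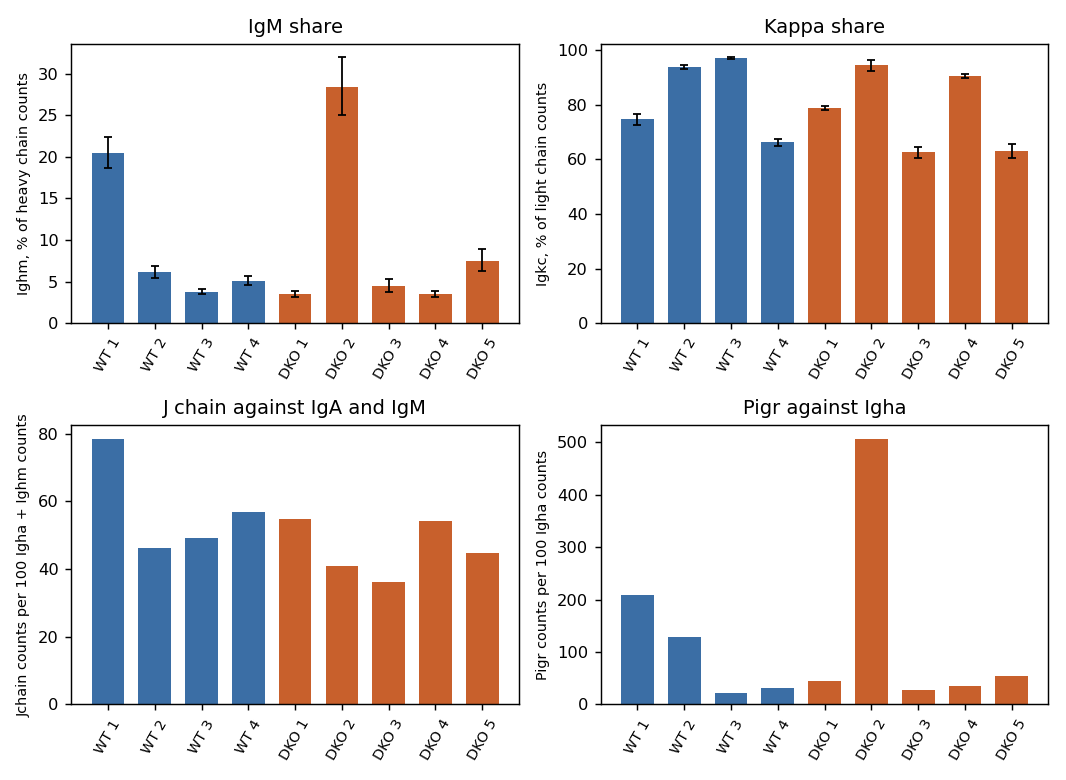
Values by library for the IgM share of heavy chain counts and the kappa share of light chain counts (both in %, bars with Wilson 95% intervals) and for *Jchain* counts per 100 *Igha* and *Ighm* counts and *Pigr* counts per 100 *Igha* counts. WT bars are blue and DKO bars orange. WT 1 and DKO 2 have the highest IgM shares, at 20.4% and 28.4%, and DKO 2 has 507 *Pigr* counts per 100 *Igha* counts.

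Across the 9 glands *Igkc*, *Jchain*, *Mzb1* and *Ighg2b* were correlated with *Igha*, and the other 5 genes did not pass. On log2 CPM, Pearson's r with *Igha* was 0.97 for *Igkc* (exact permutation p = 4.68e-05, adjusted over 9 pairs 0.000422) and 0.96 for *Jchain* (exact permutation p = 0.000493, adjusted 0.00222). Spearman's rho was 0.98 (exact permutation p = 4.96e-05) and 0.93 (exact permutation p = 0.000750). Without DKO 2 and DKO 4, the 2 libraries farthest from the *Igha* median, r was 0.93 and 0.88. Within genotypes it was 0.98 and 0.97. *Mzb1* had r = 0.89 (exact permutation p = 0.00273, adjusted 0.00820) and rho = 0.70 (exact permutation p = 0.0433, adjusted 0.0779), and r fell to 0.63 without those 2 libraries. *Ighg2b* had r = 0.77 (exact permutation p = 0.0103, adjusted 0.0232) and rho = 0.83 (exact permutation p = 0.00827), and r was 0.82 without the 2 libraries.

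*Pigr* had r = 0.05 and rho = 0.22 (exact permutation p = 0.896 and 0.581). *Ighm* had r = 0.34 and rho = 0.40 (exact permutation p = 0.362 and 0.291). *Iglc1* had r = 0.56 and rho = 0.37 (exact permutation p = 0.119 and 0.336), and its r was -0.04 without DKO 2 and DKO 4. *Ighg2c* had r = 0.59 and rho = 0.73 (exact permutation p = 0.0894 and 0.0311), and *Ighg1*, at 0 in most libraries, had r = 0.28 and rho = 0.16 (exact permutation p = 0.486 and 0.694).

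**Figure D4:**
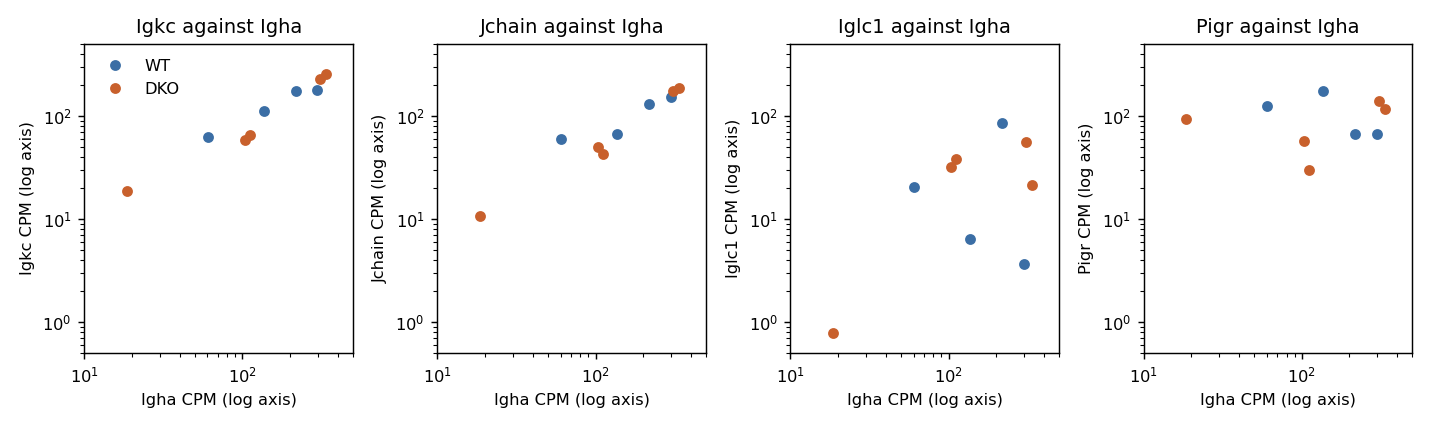
*Igkc*, *Jchain*, *Iglc1* and *Pigr* CPM against *Igha* CPM (log axes), with 1 point per library, WT blue and DKO orange. *Igkc* and *Jchain* rise with *Igha* (r = 0.97 and 0.96 on log2 CPM), whereas *Pigr* shows no such order (r = 0.05).

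Among the 13794 other tested genes outside the immunoglobulin segments, those most like *Igha* over the 9 libraries by Pearson's r were *Mir142hg* (r = 0.94), *Nim1k* (0.91), *Fcgr4* (0.88), *Rnf113a2* (0.88), *Meaf6* (0.88), *Gm26809* (0.88), *Tmem43* (0.88), *Adgrg2* (0.87), *Ccl5* (0.87) and *Gm6297* (0.86). *Mir142hg* is the host transcript of a miRNA of blood cells, *Fcgr4* encodes an IgG receptor and *Ccl5* a chemokine. Those most like *Pigr* were *Plekhg1* (0.95), *Aebp2* (0.95), *Tut4* (0.94), *Tlr2* (0.94), *Gimap1os* (0.94), *Car12* (0.94), *Slc2a12* (0.94), *Ranbp10* (0.94), *Vps72* (0.93) and *Mxi1* (0.93). These are the top of a ranking of many genes over 9 points, and are given as a description.

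Per kilobase of transcript, the median levels over the 9 libraries were 209 CPM for *Igkc*, 125 for *Igha*, 48.5 for *Jchain*, 47.2 for *Iglc1*, 24.6 for *Pigr*, 7.50 for *Ighm*, 0.694 for *Ighg2b*, 0.346 for *Mzb1*, 0.232 for *Ighg2c* and 0 for *Ighg1*. Neighbours in this order overlapped in their ranges, except *Ighm* (3.56 to 10.5) and *Ighg2b* (0.240 to 2.26). The ranges of *Jchain* (7.74 to 136), *Iglc1* (1.72 to 189) and *Pigr* (7.82 to 45.6), for instance, overlapped. Such neighbours in the order are not separated by their spread.

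The other constant genes were scarce. *Ighd*, the IgD heavy chain of naive B cells, had 51 counts over all libraries, *Ighe* 8, *Ighg3* 3 and *Iglc4* 0. *Iglc2* and *Iglc3* were tested and neither passed (log2 fold change 0.56 and 1.04, adjusted p = 0.815 and 0.590, edgeR).

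Markers of B cells, the precursors of plasma cells, were at or near 0. Of 12 B cell genes 2 were tested and 0 passed. *Ms4a1*, which encodes CD20, had 2 counts in all, *Pax5* 0 and *Fcer2a* 3. The most abundant of the list were *Cd37*, *Cd79b* and *Cd79a*, with 217, 98 and 74 counts over the 9 libraries. *Cd79a*, which plasma cells retain, was not tested and had r = 0.95 with *Igha*. The summed B cell level was 1.57 to 2.70 CPM in WT and 0.916 to 3.20 in DKO.

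Of 15 plasma cell genes 11 were tested and 0 passed. The most abundant, *Derl3*, *Xbp1* and *Fkbp11*, are also expressed in other secretory cells. They did not follow *Igha* (r = -0.23, 0.14 and 0.14), and the reason was not tested. The list's summed level was 644 to 846 CPM in WT and 694 to 1149 in DKO. *Tnfrsf17*, the survival receptor that defines plasma cells, had 21 counts in all, 0 to 6 per library. Its r with *Igha* was 0.69, the highest of the list. *Irf4*, *Prdm1* and *Pou2af1* had 49, 66 and 71 counts in all, and r = 0.56, 0.26 and 0.66. *Slamf7*, *Pim2*, *Tnfrsf13b* and *Sdc1* had more, with 211, 293, 405 and 1676, and r = 0.35, 0.51, 0.43 and 0.29. By edgeR *Cd38* had the lowest p of the list (log2 fold change 0.64, unadjusted p = 0.0141, adjusted p = 0.208). *Slamf7* came next, in the other direction (-0.85, unadjusted p = 0.0442, adjusted p = 0.327).

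Signals that call IgA plasma cells to glands and keep them alive gave 11 tested of 16 and 0 passed, with a median log2 fold change of 0.02. *Ccl28*, the chemokine that draws IgA plasma cells to mucosal glands, measured 35.2 to 47.7 CPM in WT and 36.0 to 56.7 in DKO (log2 fold change 0.22, SE 0.15, adjusted p = 0.565, edgeR). *Itgb1* had -0.03 (adjusted p = 0.936, edgeR) and *Cxcl12*, a retention chemokine, 0.23 (adjusted p = 0.625, edgeR). *Ccr10*, the receptor for Ccl28, had 14 counts in all. *Tnfsf13*, which encodes the survival factor APRIL, had -0.62 (unadjusted p = 0.0317, adjusted p = 0.288, edgeR), and *Ccl25*, a chemokine for IgA plasma cells, 0.35 (unadjusted p = 0.0342, adjusted p = 0.297, edgeR).

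Of 10 genes that move the receptor through the cell, 10 were tested and 0 passed. *Rab3d*, a GTPase of secretory granules and of transcytosis, came closest, with 178 to 216 CPM in WT and 238 to 341 in DKO (log2 fold change 0.48, SE 0.13, adjusted p = 0.092, edgeR). *Vps35*, also among the most abundant of the list, had -0.10 (adjusted p = 0.747, edgeR). Fc receptors and the neonatal Fc receptor pair that carries IgG gave 9 tested and 0 passed, with a median of -0.27. *B2m* had -0.41 (adjusted p = 0.337, edgeR), *Fcgrt* -0.27 (adjusted p = 0.435, edgeR) and *Fcer1g* -0.37 (adjusted p = 0.452, edgeR).

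Other immune lists gave no call. Of 10 T cell genes 2 were tested and 0 passed, and the most abundant were *Lck*, *Cd28* and *Cd3g*. Of 12 macrophage and dendritic cell genes 12 were tested and 0 passed, with a median of -0.30, led by *Cd74* (-0.31), *H2-Ab1* (-0.46) and *H2-Aa* (-0.28). Lymph node genes gave 2 tested of 7 and 0 passed: *Glycam1* was at 0, *Ccl21a* had 38 counts, and the most abundant were *Lyve1* and *Cxcl13*, which had log2 fold changes of -0.44 and 1.11 (adjusted p = 0.657 and 0.238, edgeR).

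The receptor is made by the epithelium, so the marker lists of its cell types are given beside it, and their part in the *Pigr* values was not tested. The summed level of 10 duct cell genes was 39976 to 72448 CPM in WT and 17502 to 33191 in DKO, with 10 tested, 0 passed and a median log2 fold change of -1.13. An unadjusted edgeR p under 0.05 was reached by 8 of the 10, against 14.5% of all tested genes. The most abundant were *Klk1b26* (-1.68), *Klk1* (0.58) and *Egf* (-1.91), with adjusted p of 0.078, 0.256 and 0.067 by edgeR. The 8 acinar cell genes summed to 240863 to 352989 CPM in WT and 370132 to 649397 in DKO, with 7 tested, 0 passed and a median of 0.66. Of the 7 tested, 5 reached an unadjusted p under 0.05 by edgeR. The most abundant were *Mucl2* (0.64), *Car6* (1.02) and *Prol1* (0.79). Of 7 myoepithelial cell genes 7 were tested and 3 passed, all lower in DKO: *Myh11* (-1.06), *Mylk* (-1.33) and *Tagln* (-1.47), each with an adjusted p of 0.048 by edgeR. All 7 had an unadjusted p under 0.05 by edgeR. Among all 13842 tested genes edgeR called 87 (0.629%), and this number ranged from 0 to 617 in other settings. Calls of these 3 genes in other settings are not given here. Of 5 sublingual genes 4 were tested and of 4 parotid genes 3, and 0 passed. The most abundant were *Dcpp1* (2.43), *Dcpp3* (1.30) and *Smgc* (2.18) of the former and *Bpifa2* (6.65), *Amy1* (2.67) and *Dnase1* (1.41) of the latter, and their part in the values of the antibody genes was not tested. *Bpifa2* measured 7431 CPM in DKO 1 and 43.3 to 79.1 in the other DKO libraries. The *Amy1* value rests on DKO 1, with 638 CPM: the other DKO libraries measured 7.10 to 14.1 CPM and lay below the WT range of 17.3 to 25.5.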

How the data were processed

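RNA of 9 male SMGs was sequenced from unstranded Nextera XT libraries. The authors deposited raw read counts for 48733 rows, the same counts for 17562 filtered rows, and a normalized table whose signal values are these counts scaled per library; all 158058 gave back whole reads within 0.01 of the filtered counts (100%). Their processing notes name STAR 2.5.2a, GRCm38 and mm10, and their methods DESeq2. Gene models came from GENCODE M21, which named 48349 rows.

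DKO was compared with WT on the unfiltered table by edgeR 4.0.16 under R 4.3.3 (TMM, filterByExpr with minimum count 10 and minimum total 15, legacy quasi-likelihood fit, genotype as the only term, Benjamini-Hochberg adjustment). The fit was tested on simulated data. The same test on the recovered reads of the filtered rows called 13 genes. Standard errors are the log2 fold change over the square root of F. log2 CPM used a prior count of 2. Exact permutation tests were two-sided over 126 splits (smallest p 0.00794) or over all pairings. Shares used *Igha*, *Ighm*, *Ighd*, *Ighe* and the 4 IgG genes, or *Igkc* and *Iglc1* to *Iglc3*. Alternatives used DESeq2 1.42.0, limma 3.58.1 (voom), other scalings, filters, a replicate block and libraries left out. Python 3.11.15, scipy 1.17.1 and pandas 2.3.3 made the summaries.

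The 10 genes and the 14 marker lists were chosen with earlier results of these data known. Named were all 10 genes, list genes that passed or else the 3 most abundant of a list, and the 10 genes most like *Igha* and *Pigr*. Other list genes (*Ms4a1*, *Pax5*, *Fcer2a*, *Tnfrsf17*, *Irf4*, *Prdm1*, *Pou2af1*, *Slamf7*, *Pim2*, *Tnfrsf13b*, *Sdc1*, *Cd38*, *Ccr10*, *Tnfsf13*, *Ccl25* and *Glycam1*) were named after their values were seen. Some genes of the lists are not reported here. Female libraries were not analysed here.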

Additional observations from a re-analysis of the deposited data

Results flagged for a closer look

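Of the 31 groups of values checked for a single library apart from the rest, 5 held one, and chance alone marks about 5% of such groups. *Igha* took 78.7% of heavy chain counts in WT 1, where the next lowest WT library had 93.0%, and 69.5% in DKO 2, where the next lowest DKO library had 91.9%. The IgM share mirrored this, at 20.4% in WT 1 against 6.13% for the next highest and 28.4% in DKO 2 against 7.48%. The fifth was the ratio of *Pigr* to *Igha* in DKO 2, with 507 *Pigr* counts per 100 *Igha* counts against 55.1 in the next highest DKO library. These 5 flags come from 2 libraries, WT 1 and DKO 2, which had the lowest *Igha* levels of their groups, at 60.1 and 18.6 CPM.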

How the results depend on the processing

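No alternative called any of the 7 tested genes. *Ighg1*, *Ighg2c* and *Mzb1* entered only the fits with no filter and on the authors' filtered rows, with adjusted p of 0.384 and 0.401, 0.504 and 0.443, and 0.835 and 0.852. Unadjusted, *Ighg1* had 0.0270 and 0.0574 by edgeR. Its values rest on 9 counts, 8 of them in DKO 1, with 0 in WT. With no filter, 2701 of 26391 genes had an unadjusted p under 0.05. The number of genes called in the whole table did move, from 87 to 5 with upper quartile factors, 357 with library size alone, 617 with DESeq2, 4 with limma-voom, 347 with no filter, 13 on the authors' filtered rows, and 0 to 416 when 1 library was left out (306 without WT 2, 416 without DKO 4, at most 2 without any of the others). It was 6 without WT 3, DKO 1 and DKO 4, 482 without DKO 1, DKO 2 and DKO 4, and 143 without all 4, settings added after seeing the data. The causes were not tested. With the replicate number as a block the count was 0 (2024 genes at an unadjusted p under 0.05); correlations of same-numbered deviations were 0.150, 0.298, 0.074 and 0.014, so the numbers were not treated as pairing the mice. Library size alone moved the median log2 fold change of all genes to -0.28.

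With 1 library left out, log2 fold changes ranged from -0.40 to 0.34 for *Igha*, -0.50 to 0.21 for *Igkc*, -0.55 to 0.16 for *Jchain*, -0.33 to 1.57 for *Iglc1*, -0.13 to 1.11 for *Ighg2b* and -0.54 to 0.020 for *Pigr*, so that each changed sign, and from -0.56 to -0.27 for *Ighm*. *Ighm* stayed below 0 in all 20 alternatives. Its unadjusted p by edgeR was 0.0491 without WT 2 and 0.0315 without DKO 4. It was 0.0372 with library size alone and 0.0489 with the replicate block. In these settings 2200, 2322, 3519 and 2024 of the 13842 tested genes had an unadjusted p under 0.05. The lowest adjusted p of *Ighm* in any setting was 0.109 by edgeR. Library size alone gave -0.12 for *Ighg2b* and -0.22 for *Iglc1*. *Ighg2b* was -0.17 without DKO 1, DKO 2 and DKO 4, and *Iglc1* was -0.66 without WT 3, DKO 1 and DKO 4 and -0.087 without all 4.

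The difference in IgA share ranged from -4.97 to 3.84 percentage points with 1 library left out, and was 2.41 and 4.07 without the 3 libraries highest by CPM and without all 4. The IgM share ranged from -4.13 to 4.46, was -2.89 and -4.59 in the same 2 settings, and had a log2 odds difference of -0.10. *Pigr* per 100 *Igha* counts ranged from -57.1 to 73.5, was -56.7 and -81.7 in those settings and had a log2 ratio difference of -0.0067. The IgG share, the kappa share and the J chain ratio kept their direction in all 14 alternatives and none passed, but their sizes moved. The kappa difference (-4.96 percentage points) ranged from -0.281 without WT 3 to -10.5 without WT 4, with -1.33 without WT 2, -1.14 without DKO 3, -1.26 without DKO 5, -7.72 without WT 1, -9.13 without DKO 2 and -8.12 without DKO 4, and was -20.0 and -15.3 without the 3 libraries highest by CPM and without all 4. The J chain difference (-11.5) was -4.51 without WT 1, and -19.9, -17.2 and -20.1 in the 3 versions. The IgG difference (0.529) was 0.320 without DKO 3. From 3 to 4 of the 9 correlations with *Igha* passed when 1 library was left out.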
